A study of Homo sapiens with 14 samples.

Results

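TXNIP and ARRDC4, a pair of genes that cells switch on when glucose is plentiful, were followed here together with their relatives ARRDC2 and ARRDC3 and with the genes for the glucose sensors that drive them, MLXIP, MLXIPL and MLX. The members were the rows of the RNA-seq count tables carrying 1 of these 7 gene names, out of 59471 gene names in all, and each of the 7 had reads in every library. The cells were SCC23, an established head and neck squamous cell carcinoma (HNSCC) line maintained in high glucose medium. The labels describe a Cas9-GFP plasmid carrying a guide RNA against LacZ, as the control, or against KMT2D, the gene for a histone H3 lysine methyltransferase of enhancers. The resulting cells are called KMT2D-WT and KMT2D-KO, and the knockout lines KO1 and KO2 were sorted by GFP, with no single-cell cloning described. Each genotype was kept in glucose or deprived of it for 6 h. There were 3 KMT2D-WT and 4 KMT2D-KO libraries in each glucose condition, 14 in all, from 2 experiments: in each condition experiment 1 gave KMT2D-WT replicate 1 and KMT2D-KO replicates 1 (KO1) and 2 (KO2), and experiment 2 gave KMT2D-WT replicates 2 and 3 and KMT2D-KO replicates 3 (KO1) and 4 (KO2). No label says that replicates were separate cultures, so the p-values measure only the spread between these libraries. The question addressed was how glucose and KMT2D, separately and together, set the level of the glucose-sensing genes.

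MLXIP encodes MondoA and MLXIPL encodes ChREBP, a pair of basic helix-loop-helix leucine zipper proteins that respond to glucose 6-phosphate, and MLX encodes the partner with which each binds DNA. Their binding site, the carbohydrate response element, is made of E-box-like hexamers set a short distance apart. TXNIP, the best known target of MondoA, binds thioredoxin and lowers glucose uptake by drawing glucose transporters into the cell, so that it acts as feedback on sugar entry, and ARRDC4 has a similar role. TXNIP, ARRDC2, ARRDC3 and ARRDC4 all belong to the alpha-arrestins, adaptors that bring ubiquitin ligases of the NEDD4 family to membrane proteins.

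The starts of TXNIP and ARRDC4 are shown with the E-box-like hexamers that they hold. Each window runs 5′ to 3′ along the gene from 250 bases before to 50 bases after the first listed start (RefSeq, GRCh38.p14). The TXNIP window is chr1:145996530-145996829 on the minus strand and the ARRDC4 window chr15:97960453-97960752 on the plus strand. Capitals mark matches to the E-box-like hexamer CACGNG on either strand.
TXNIP: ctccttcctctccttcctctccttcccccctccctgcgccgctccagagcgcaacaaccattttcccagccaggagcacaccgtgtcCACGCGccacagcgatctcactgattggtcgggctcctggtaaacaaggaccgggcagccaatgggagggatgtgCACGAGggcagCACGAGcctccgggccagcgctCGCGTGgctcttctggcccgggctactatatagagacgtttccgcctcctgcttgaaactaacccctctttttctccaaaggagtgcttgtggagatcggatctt
ARRDC4: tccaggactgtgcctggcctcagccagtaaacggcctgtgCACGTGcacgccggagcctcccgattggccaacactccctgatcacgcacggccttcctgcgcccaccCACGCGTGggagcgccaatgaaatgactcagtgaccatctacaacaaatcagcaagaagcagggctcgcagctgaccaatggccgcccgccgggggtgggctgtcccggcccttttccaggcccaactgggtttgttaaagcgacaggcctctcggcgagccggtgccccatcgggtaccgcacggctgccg

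In the TXNIP window, 2 such hexamers in the same orientation stood 5 bases apart, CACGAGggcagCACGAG, starting 88 bases before the start (chr1:145996651-145996667, minus strand). This spaced pair occurred in 20 of 35116 promoter windows of the same length, 0.057%, and in no other window of the 7 genes. Hexamers in opposite orientation or at another spacing were not searched for as pairs, so this is not a share of all carbohydrate response elements. The hexamer alone was common, in 30.5% of all windows. TXNIP had 4 matches and ARRDC4 had 3, of which the pair that starts 142 and 140 bases before its start overlapped each other. The full E-box CACGTG, found in 7.26% of windows, was present in ARRDC4 at 210 bases and in MLX at 50 bases before the start, and not in the TXNIP window. CCAAT on either strand, which 34.6% of windows hold, occurred 2 times in TXNIP and 3 times in ARRDC4. Of the 20 genes with the spaced pair, 17 were tested for glucose deprivation in KMT2D-WT cells, where TXNIP was the only one lower and HSPBAP1, at a log2 fold change of 0.39 (edgeR adjusted p = 0.0469), the only one higher, 2 of 17 against 14.7% of all genes tested; their median log2 fold change was 0.15. In KMT2D-KO cells 15 were tested, of which 2 were lower, TXNIP and TIGD1 at -1.51 (edgeR adjusted p = 0.00523), and 2 higher, MTHFS at 0.93 and P4HA1 at 0.29 (edgeR adjusted p = 0.0452 and 0.0499), against 30.0% of all genes tested. A match is a description of the letters in the window and not of binding.

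Depth ran from 15669154 to 62968057 counts per library. In the 4 libraries of experiment 2 with glucose both mates of each read pair were counted, and in the other 10 single reads were, so in experiment 2 the glucose conditions cannot be told apart from the library layout, while in experiment 1 the layout was the same. Both pairs of libraries of one genotype without glucose in experiment 2 were unusually alike, with a chi-square per gene of 1.71 for KMT2D-WT and 1.78 for KMT2D-KO against 25.9 to 83.0 for the other pairs. The labels name these pairs as WT1 and WT2 and as KO1 and KO2, and the KO1 and KO2 libraries with glucose in experiment 2 gave 83.0. No label says whether the libraries of a pair were separate cultures. If each pair came from 1 culture, the libraries without glucose would count as 2 for KMT2D-WT and 3 for KMT2D-KO. For KMT2D-KO a line label would then be wrong, and the fits by line and the pairing by line rest on those labels. The edgeR tests were also run with each pair summed into 1 library, and the ratio tests were not. KMT2D itself, whose transcript an edit need not remove, had 266 to 279 CPM (counts scaled to library size and by the trimmed mean of M values, TMM) in KMT2D-WT and 182 to 373 CPM in KMT2D-KO with glucose, so its count did not separate the genotypes. Without glucose it had 231 to 239 CPM in KMT2D-WT and 145 to 190 CPM in 3 KMT2D-KO libraries, against 19.9 CPM in KMT2D-KO replicate 1, which stood apart in several of the genes below. Of 12 squamous epithelial markers, 10 had at least 1 CPM in every library, while KRT6A was at 0 in 3 libraries and PKP1 reached down to 0.884 CPM. By the edgeR test given below, 3 of 11 tested, KRT14, ITGB4 and PKP1, were lower in KMT2D-KO than in KMT2D-WT cells with glucose. None was higher, against 11.7% lower and 13.0% higher of all genes. Without glucose 1 of 12 was lower and 6 were higher, against 24.9% and 25.9%. Of 12 markers of other cell types, 9 stayed below 1 CPM in every library. Bulk libraries cannot tell fewer cells expressing a gene from less RNA per cell.

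TXNIP (chromosome 1, 145992435 to 145996579, minus strand, GRCh38, 3604 exonic bases) was the member with the largest change. With glucose the KMT2D-WT libraries held 119, 137 and 128 CPM of it. Without glucose it had 6.03, 5.15 and 6.27 CPM. In KMT2D-KO cells it had 44.9, 45.7, 49.4 and 67.5 CPM with glucose and 9.72, 3.20, 3.61 and 3.52 CPM without. Every library with glucose lay above every library without it, and every KMT2D-KO library with glucose lay below every KMT2D-WT library with glucose. Without glucose, 3 KMT2D-KO libraries lay below the KMT2D-WT libraries and replicate 1 lay above them.

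**Figure D1:**
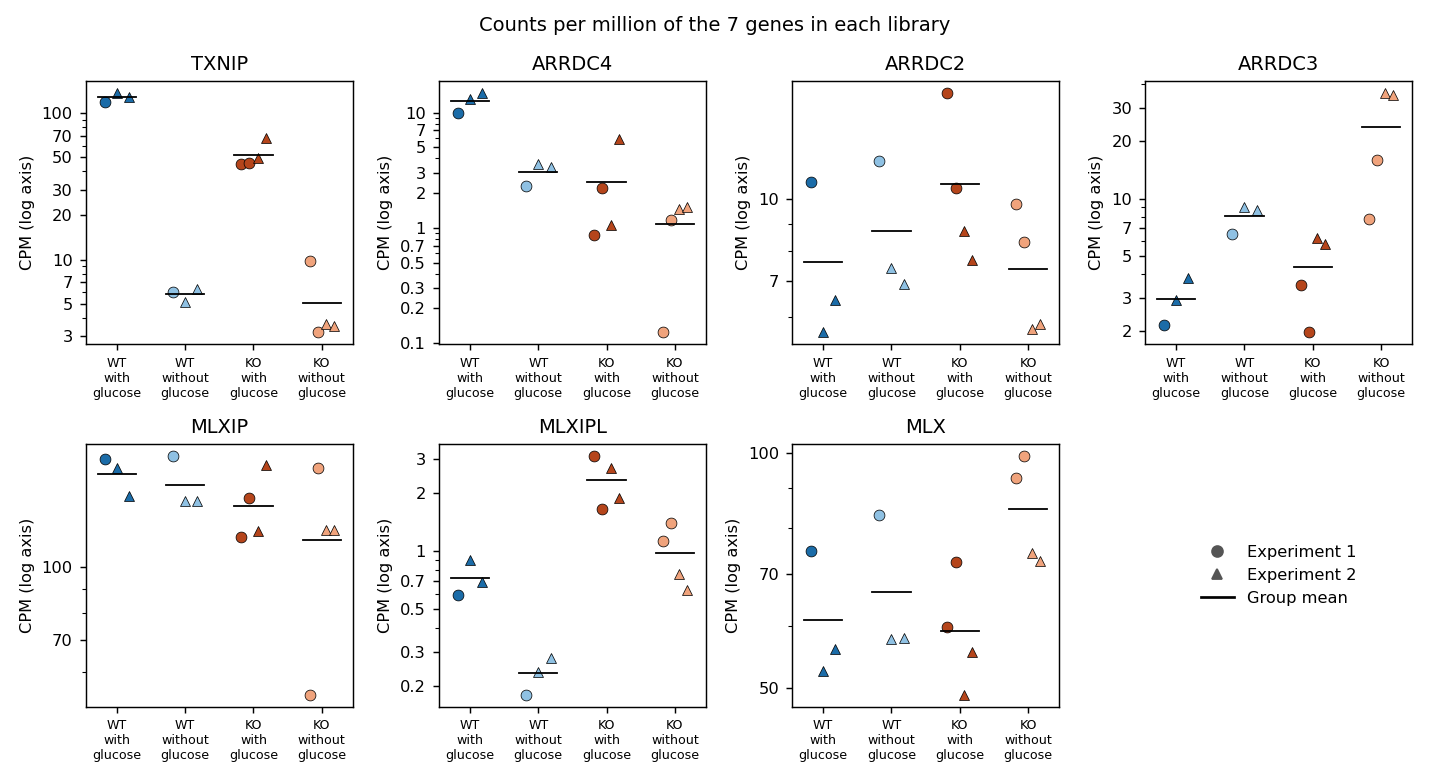
TMM-scaled CPM of each gene on a log axis, 1 point per library, in KMT2D-WT (blue) and KMT2D-KO (red) cells with (dark) and without (pale) glucose; circles are experiment 1, triangles experiment 2, and lines the group means. TXNIP lies between 119 and 137 CPM in the KMT2D-WT libraries with glucose and between 5.15 and 6.27 CPM in those without.

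ARRDC4 (chromosome 15, 97960703 to 97973833, plus strand, 4062 exonic bases) was less abundant. It had 10.0, 13.1 and 14.8 CPM in KMT2D-WT libraries with glucose and 2.31, 3.58 and 3.35 CPM without. In KMT2D-KO cells with glucose KO1 had 0.860 and 1.05 CPM and KO2 had 2.23 and 5.85 CPM in experiments 1 and 2. All 4 values lay below the KMT2D-WT libraries with glucose, and 3 of the 4, other than KO2 of experiment 2, also below the KMT2D-WT libraries without glucose. Without glucose KMT2D-KO libraries had 0.125, 1.18, 1.47 and 1.51 CPM, overlapping the KMT2D-KO libraries with glucose. The lowest value, from replicate 1, rested on 2 counts.

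ARRDC3 (chromosome 5, 91368631 to 91383317, minus strand), an alpha-arrestin linked to the sorting of beta-adrenergic receptors, went the opposite way. It had 2.15, 2.93 and 3.82 CPM in KMT2D-WT libraries with glucose and 6.48, 9.04 and 8.71 CPM without. In KMT2D-KO cells it had 3.50, 1.98, 6.23 and 5.75 CPM with glucose and 7.77, 15.9, 36.0 and 35.2 CPM without. Within each genotype no library with glucose reached a library without it. Antisense ARRDC3-AS1 covers 2.91% of the exonic bases and counting ignored strand, so reads from it cannot be told apart there.

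ARRDC2 (chromosome 19, 18001132 to 18014102, plus strand) ranged from 5.61 to 15.9 CPM over the 14 libraries and its groups overlapped. Its exons overlap AC020904.3 over 9.53% of their bases. In both genotypes and both conditions the highest value came from experiment 1. In KMT2D-KO cells it had 15.9, 10.5, 8.71 and 7.67 CPM with glucose and 9.78, 8.30, 5.69 and 5.82 CPM without, lower within each line and experiment.

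Among the sensors, MLXIP (MondoA; chromosome 12, 122078756 to 122147344, plus strand) was the abundant one and MLXIPL (ChREBP; chromosome 7, 73593194 to 73624543, minus strand) the scarce one. MLXIP ranged from 116 to 172 CPM in 13 libraries and had 53.7 CPM in KMT2D-KO without glucose replicate 1. MLX (chromosome 17, 42567072 to 42573239, plus strand), which overlaps PSMC3IP over 18.2% of its exonic bases and whose pseudogene MLXP1 had at most 19 counts, ranged from 49.0 to 99.1 CPM. MLXIPL had 0.591, 0.903 and 0.692 CPM in KMT2D-WT libraries with glucose and 0.181, 0.237 and 0.282 CPM without, the latter from 4 to 8 counts. In KMT2D-KO libraries it had 3.13, 1.65, 2.71 and 1.89 CPM with glucose and 1.13, 1.40, 0.759 and 0.628 CPM without. The 4 groups of MLXIPL fell in separate ranges except that KMT2D-WT with glucose overlapped KMT2D-KO without glucose.

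Levels per length, in TPM (counts per exonic base, scaled to the same sum in each library), gave the order of the genes. In KMT2D-WT cells with glucose TXNIP led with 143 ± 17.2 TPM (SD, n = 3). Then came MLX with 57.5 ± 8.55, MLXIP with 45.6 ± 4.50, ARRDC4 with 12.6 ± 2.77, ARRDC2 with 6.55 ± 2.09, ARRDC3 with 2.40 ± 0.710 and MLXIPL with 0.614 ± 0.166 TPM (SD, n = 3 each), and no neighbours overlapped. Without glucose TXNIP fell among the minor members at 6.50 ± 0.711 TPM, with ARRDC2 at 7.46 ± 1.70 and ARRDC3 at 6.59 ± 1.56 TPM (SD, n = 3 each), and these 3 overlapped. In KMT2D-KO cells with glucose TXNIP, at 52.4 ± 12.1 TPM, overlapped MLX, at 50.0 ± 4.48 TPM (SD, n = 4 each). KMT2D-KO cells without glucose had more ARRDC3, 14.2 ± 9.11 TPM, than TXNIP, 3.94 ± 2.19 TPM, on average (SD, n = 4 each), though in replicate 1 ARRDC3 was at 4.17 and TXNIP at 7.21 TPM.

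In KMT2D-WT cells 6 h without glucose lowered TXNIP 21.9-fold, ARRDC4 4.09-fold and MLXIPL 3.08-fold and raised ARRDC3 2.76-fold. These 4 of the 7 members passed the test, against 14.7% of 17227 genes tested (edgeR quasi-likelihood test with experiment as covariate, Benjamini-Hochberg adjusted p under 0.05). The log2 fold change of TXNIP was -4.45 with SE 0.11 (edgeR adjusted p = 0.000735), the 8th lowest of all genes tested. ARRDC4 changed by -2.03 with SE 0.12 (edgeR adjusted p = 0.00983), ARRDC3 by 1.47 with SE 0.16 (edgeR adjusted p = 0.0168) and MLXIPL by -1.62 with SE 0.33 (edgeR adjusted p = 0.0358). MLXIP at -0.07, MLX at 0.12 and ARRDC2 at 0.22 on the log2 scale did not pass (edgeR adjusted p = 0.472, 0.121 and 0.215). The median log2 fold change was -0.07 over the 7 members and 0.01 over all genes. Fitted without experiment, 1 member passed, TXNIP. With the alike pair summed 1 member also passed, TXNIP at -4.42 (edgeR adjusted p = 0.00548), the 1 gene called of all, and with all 14 libraries in 1 fit 2 did. Leaving out any 1 of the 4 libraries of experiment 2 left at most 1 member passing. Without KMT2D-WT with glucose replicate 3 TXNIP itself did not pass, at a log2 fold change of -4.47 (edgeR adjusted p = 0.0614), and 0 genes of all were called.

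In KMT2D-KO cells the same treatment lowered TXNIP 10.9-fold, MLXIPL 2.53-fold and ARRDC2 1.46-fold and raised ARRDC3 5.03-fold and MLX 1.41-fold. Thus 5 of the 7 passed, against 30.0% of 16057 genes tested. TXNIP changed by -3.44 with SE 0.40 (edgeR adjusted p = 0.00193), and ARRDC3 by 2.33 with SE 0.28 (edgeR adjusted p = 0.00211). MLX changed by 0.49 with SE 0.09 (edgeR adjusted p = 0.00797), MLXIPL by -1.34 with SE 0.34 (edgeR adjusted p = 0.0237), and ARRDC2 by -0.55 with SE 0.18, close to the threshold (edgeR adjusted p = 0.0498). ARRDC4, at -1.24 with SE 0.71, did not pass (edgeR adjusted p = 0.212), nor did MLXIP at -0.27 (edgeR adjusted p = 0.513). The ARRDC4 value lay at -0.58 without KMT2D-KO with glucose replicate 4 and at -1.81 without KMT2D-KO without glucose replicate 2. The median over the 7 members was -0.55, against 0 over all genes. Without replicate 1 of the glucose-deprived libraries TXNIP changed by -3.97. Without experiment in the fit 2 members passed, with the alike pair summed 3 did, and without any 1 of KMT2D-KO with glucose replicates 1, 3 and 4 or without glucose replicates 3 and 4 there were 3.

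**Figure D2:**
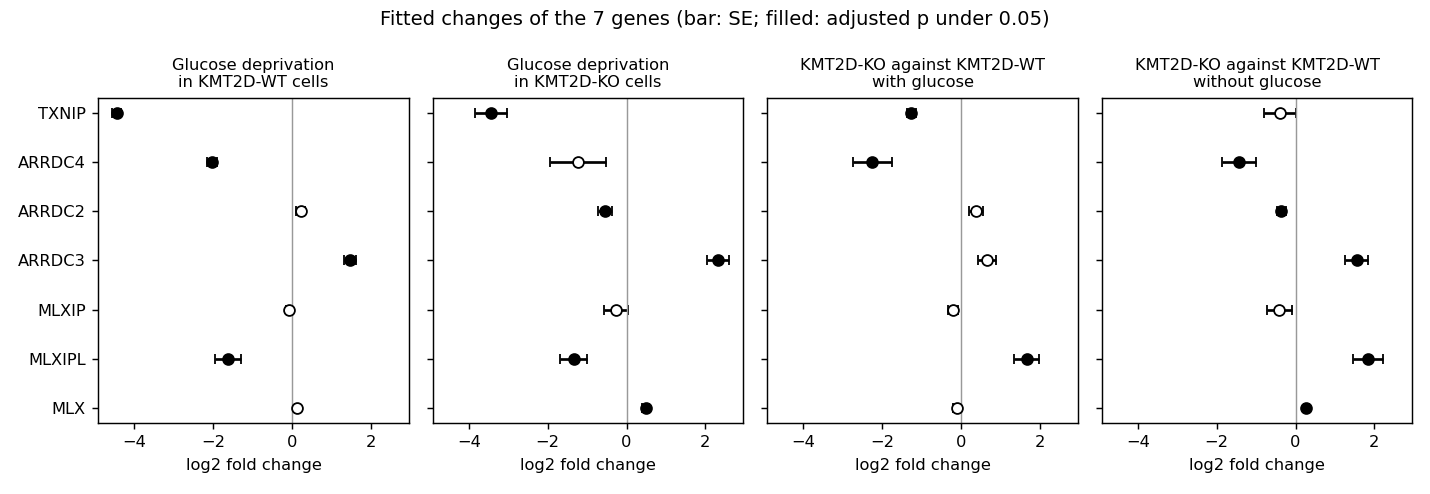
Log2 fold changes of the 7 genes in 4 comparisons fitted with edgeR; bars are SE, and filled points have an adjusted p under 0.05. TXNIP lies at -4.45 and -3.44 in the glucose comparisons, and at -1.26 and -0.39 in the genotype comparisons with and without glucose.

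Within experiment 1, where all libraries were single-end, TXNIP changed by -4.30 in KMT2D-WT and -2.84 in KMT2D-KO cells and ARRDC3 by 1.59 and 2.09. Within experiment 2 TXNIP changed by -4.54 and -4.01 and ARRDC3 by 1.40 and 2.59. No member passed in experiment 1 alone, where 1 member in KMT2D-WT and 3 in KMT2D-KO cells had an unadjusted edgeR p under 0.05. There TXNIP had an edgeR adjusted p of 1 in KMT2D-WT cells, whose lone library per condition was taken to vary like the KMT2D-KO libraries, and of 0.122 in KMT2D-KO cells.

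With glucose, KMT2D-KO cells had 2.39-fold less TXNIP and 4.75-fold less ARRDC4 than KMT2D-WT cells, and 3.19-fold more MLXIPL. These 3 of the 7 passed, against 24.7% of 20423 genes tested. TXNIP differed by -1.26 with SE 0.11 (edgeR adjusted p = 0.000123), ARRDC4 by -2.25 with SE 0.50 (edgeR adjusted p = 0.0108) and MLXIPL by 1.67 with SE 0.32 (edgeR adjusted p = 0.0056). ARRDC2 at 0.38, ARRDC3 at 0.66, MLXIP at -0.21 and MLX at -0.10 did not pass (edgeR adjusted p = 0.135, 0.0729, 0.291 and 0.54). The median over the 7 members was -0.10, against 0.02 over all genes. Line by line the log2 difference of TXNIP was -1.41 in KO1 and -1.13 in KO2, and that of ARRDC4 was -3.68 and -1.53. Leaving out KMT2D-WT with glucose replicate 1 left 1 member passing. The 12 markers of other cell types summed to 13.0 to 23.9 CPM in these KMT2D-KO libraries against 7.72 to 8.85 CPM in KMT2D-WT. Below 1 CPM throughout were DCN, LUM and PDGFRB, which like the collagen genes mark fibroblasts, and PTPRC, CD3E, CD68, PECAM1, VWF and ALB. Of 4 markers tested 2 were higher, the collagen genes COL1A1, at 11.5 CPM or more against 6.92 CPM or less (log2 difference 1.26, edgeR adjusted p = 0.000906), and COL1A2, at 0 to 5.34 against 0 to 0.858 CPM (2.72, edgeR adjusted p = 0.00625), while MLANA lay at -0.58 (edgeR adjusted p = 0.191); their part in the result was not tested.

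Without glucose, KMT2D-KO cells had 2.93-fold more ARRDC3 and 3.57-fold more MLXIPL and 2.72-fold less ARRDC4 than KMT2D-WT cells. With ARRDC2, 1.28-fold lower, and MLX, 1.21-fold higher, 5 of the 7 passed, against 50.8% of 16782 genes tested. With each alike pair summed into 1 library 0 of the 7 passed by edgeR, with 2 at an unadjusted p under 0.05. ARRDC3 differed by 1.55 with SE 0.29 (edgeR adjusted p = 0.00438), MLXIPL by 1.84 with SE 0.39 (edgeR adjusted p = 0.00705), MLX by 0.27 with SE 0.06 (edgeR adjusted p = 0.00893), ARRDC4 by -1.44 with SE 0.43 (edgeR adjusted p = 0.0289) and ARRDC2 by -0.36 with SE 0.12 (edgeR adjusted p = 0.0415). TXNIP at -0.39 and MLXIP at -0.41 did not pass (edgeR adjusted p = 0.451 and 0.308), and the median over the 7 members was -0.36, against 0 over all genes. Replicate 1 of KMT2D-KO decided the call on TXNIP: without it TXNIP differed by -0.78 (edgeR adjusted p = 5.01e-05). All 7 members passed then, as did 12448 genes in all, against 8521 with it. That fit counted the alike libraries of each genotype as separate, so its p-values rest largely on the small spread within those pairs. The call on MLX rested on TMM scaling, since with library size alone it differed by 0.02 (edgeR adjusted p = 0.842). Without experiment in the fit 1 member passed, and leaving out any 1 library other than KMT2D-KO replicates 1 and 2 left 2 or 3. The markers of other cell types summed to 7.74 to 14.6 CPM in KMT2D-KO against 4.12 to 5.89 CPM in KMT2D-WT libraries. COL1A1, the 1 marker tested, was higher by 1.33 (edgeR adjusted p = 0.000398), while COL1A2 and LUM had 0 CPM in every KMT2D-KO library. The part of these markers was not tested.

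Whether the KMT2D-KO effect differed between glucose conditions was tested over all 14 libraries. Of the 7 members 1 passed, ARRDC2, against 11.3% of 18678 genes tested: its KMT2D-KO effect was lower without glucose than with it by a log2 difference of -0.72 with SE 0.21 (edgeR adjusted p = 0.0484). TXNIP, at a difference of 0.89 with SE 0.38, did not pass (edgeR adjusted p = 0.149). Neither did ARRDC3 at 0.89, ARRDC4 at 0.85, MLX at 0.39, MLXIPL at 0.20 or MLXIP at -0.17 (edgeR adjusted p = 0.172, 0.521, 0.061, 0.841 and 0.814). Without experiment in the fit none passed by edgeR or DESeq2, with 1 member at an unadjusted p under 0.05 by either, and without KMT2D-KO without glucose replicate 1 there were 4, with TXNIP at 0.52 (edgeR adjusted p = 0.0481). Leaving out any 1 KMT2D-WT library, KMT2D-KO with glucose replicate 3 or KMT2D-KO without glucose replicates 3 or 4 left none passing by edgeR, with 2 or 3 members at an unadjusted p under 0.05, and without KMT2D-KO without glucose replicate 2 there were 2. The comparisons above share libraries and are not independent of one another.

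Ratios of 2 genes within a library do not depend on how libraries are scaled. The log2 ratio of ARRDC4 to TXNIP counts was -3.57, -3.38 and -3.11 in KMT2D-WT libraries with glucose and -1.37, -0.52 and -0.90 without. In KMT2D-KO libraries it was -5.65, -4.35, -5.55 and -3.53 with glucose and -5.96, -1.42, -1.28 and -1.21 without. The mean ratio was higher without glucose in both genotypes, and replicate 1 of KMT2D-KO without glucose lay below all other libraries. Over 7 against 7 libraries the ratio averaged -1.81 ± 1.86 (SD) without and -4.16 ± 1.05 (SD) with glucose, a difference of 2.35 (exact permutation test, two-sided, p = 0.0204; adjusted over both ratios tested, p = 0.0303). The difference was 1.61 in experiment 1 (p = 0.4 by exact permutation, where 0.1 is the smallest possible) and 2.91 in experiment 2 (exact permutation p = 0.0286, the smallest possible there).

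The log2 ratio of MLXIP to MLX counts averaged 0.70 ± 0.70 (SD, n = 7) without and 1.27 ± 0.27 (SD, n = 7) with glucose, a difference of -0.57 (exact permutation test, two-sided, p = 0.0303; adjusted over both ratios, p = 0.0303). In KMT2D-WT libraries the ratio was 1.04 to 1.25 without and 1.17 to 1.62 with glucose, which overlap, and in KMT2D-KO libraries -0.79 to 0.72 without and 0.95 to 1.57 with glucose, which do not. The lowest value was again that of replicate 1, without which the difference was -0.32 (exact permutation p = 0.0606). Leaving out 1 library at a time gave an exact permutation p from 0.0501 to 0.0606 for 7 of the 14, namely KMT2D-WT replicates 2 and 3 and KMT2D-KO replicate 4 with glucose and each KMT2D-KO replicate without glucose. The 7 pairs of the same line and experiment were also compared, a pairing tried after seeing the data. The MLXIP to MLX ratio was lower without glucose in 7 of 7 pairs, by -1.74 to -0.08 (exact sign-flip permutation p = 0.0156, the smallest possible, and p = 0.0312 adjusted over both ratios). The ARRDC4 to TXNIP ratio was higher in 6 of 7, with the pair of replicate 1 at -0.30 (exact sign-flip permutation p = 0.0312). These pairs take the alike libraries of experiment 2 without glucose as separate cultures, which no label says.

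**Figure D3:**
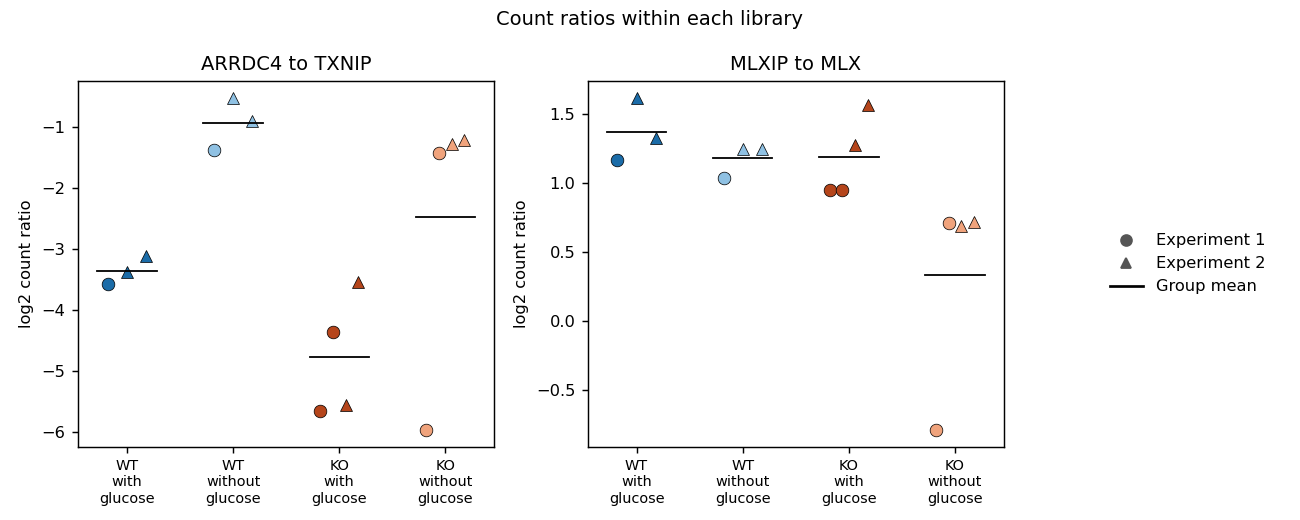
Log2 ratio of the counts of 2 genes in each library by group; circles are experiment 1, triangles experiment 2, and lines the group means. The ARRDC4 to TXNIP ratio lies between -5.65 and -3.11 in the 7 libraries with glucose and between -1.42 and -0.52 in 6 of the 7 without, with 1 library at -5.96.

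The other genes around these members came from 3 lists and from 8 arrestins, members included. Of the latter none but members passed in a glucose comparison. In KMT2D-KO cells with glucose 4 of 7 tested were lower and 1 higher, against 11.7% and 13.0% of all genes. ARRDC1 differed by -0.58, ARRB2 by -0.79 and ARRB1 by 4.29 (edgeR adjusted p = 0.00593, 0.00805 and 0.000197). Without glucose 3 of 7 were lower and 2 higher, against 24.9% and 25.9%, with ARRB1 at 4.99 (edgeR adjusted p = 3.11e-05). Among 28 carbohydrate response genes, known in liver or other tissues as targets of the sensors, 19 were tested in KMT2D-WT cells, of which 6 fell and 3 rose without glucose, against 7.58% and 7.15% of all genes. Beside TXNIP and ARRDC4, those that fell included KLF10, a glucose-induced zinc finger repressor, at -0.90, ACACB, the mitochondrial acetyl-CoA carboxylase, at -0.97, and ELOVL6, a fatty acid elongase, at -0.52 on the log2 scale (edgeR adjusted p = 0.0168, 0.0314 and 0.0292). PFKFB3, which makes the activator of phosphofructokinase, rose by 0.75 and HK2, a hexokinase, by 0.64 (edgeR adjusted p = 0.0237 and 0.0211). In KMT2D-KO cells 20 were tested, of which 2 fell, TXNIP and KLF10, the latter at -0.71 (edgeR adjusted p = 0.0174), and 1 rose, TKT, transketolase of the pentose phosphate pathway, at 0.72 (edgeR adjusted p = 0.00517), against 30.0% of all genes called in either direction. The median log2 fold change of the list was -0.02 in KMT2D-WT and -0.01 in KMT2D-KO cells, against 0.01 and 0 over all genes. With glucose, KMT2D-KO cells had 7 of 21 tested lower and 4 higher, against 11.7% and 13.0% of all genes, among them ACACB at -0.92 and KLF10 at -0.45 lower and ELOVL6 at 0.66 higher (edgeR adjusted p = 0.0031, 0.0228 and 0.00654). Without glucose 6 of 19 were lower and 2 higher, against 24.9% and 25.9% of all genes.

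In the MLX and MAX network of 13 genes, whose members pair with MLX or MAX and compete for E-boxes, the transcription factor MYC had the largest log2 fold change in KMT2D-KO cells, and MLXIPL in KMT2D-WT cells. MYC rose without glucose by 0.85 in KMT2D-WT and by 2.11 in KMT2D-KO cells (edgeR adjusted p = 0.0148 and 0.000131), and the KMT2D-KO effect on it differed between glucose conditions by 1.34 (edgeR adjusted p = 4.49e-05). Besides MLXIPL and MYC none of 12 tested passed in KMT2D-WT cells, MYCL lying at -1.04 (edgeR adjusted p = 0.0794). In KMT2D-KO cells 4 fell, MLXIPL, MYCL at -1.44, MGA at -0.57 and MXD3 at -0.53, and 3 rose, MLX, MYC and MXD1 at 0.83 (edgeR adjusted p of those 4 = 0.0244, 0.0385, 0.0345 and 0.0391). Of all genes tested 14.7% were called in KMT2D-WT and 30.0% in KMT2D-KO cells, in either direction. The median of the list was -0.03 in KMT2D-WT and 0.17 in KMT2D-KO cells. KMT2D-KO cells with glucose had 2 of 12 higher, MLXIPL and MYC, and none lower, against 13.0% and 11.7% of all genes. Without glucose 7 of 12 were higher and 2 lower, against 25.9% and 24.9% of all genes.

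Among 13 partners of TXNIP and the alpha-arrestins, 12 were tested in KMT2D-WT cells, of which 3 rose and none fell without glucose, against 7.15% and 7.58% of all genes. DDIT4, whose product binds TXNIP and restrains mTORC1, rose by 2.24, SLC2A1, the glucose transporter GLUT1, by 0.53 and TXN2, mitochondrial thioredoxin, by 0.27 (edgeR adjusted p = 0.0168, 0.0168 and 0.0357). In KMT2D-KO cells, where 30.0% of all genes were called in either direction, 7 of 11 rose and 1 fell. These included DDIT4 at 1.51, the ubiquitin ligases NEDD4L at 1.04 and ITCH at 0.45, SLC2A1 at 0.91 and thioredoxin reductase TXNRD1 at 0.80 (edgeR adjusted p = 0.000398, 0.00335, 0.0162, 0.002 and 0.0299). The median of the list was 0.10 in KMT2D-WT and 0.45 in KMT2D-KO cells. In KMT2D-KO against KMT2D-WT cells 3 of 13 were lower and 2 higher with glucose, and 3 of 12 lower and 5 higher without, against 24.7% and 50.8% of all genes called in either direction. As a check on the treatment, 8 of 10 genes of the stress response to glucose loss rose in either genotype, with DDIT3 at 1.71 and 2.86. The shares of all genes called in either direction were 14.7% in KMT2D-WT and 30.0% in KMT2D-KO cells.

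**Figure D4:**
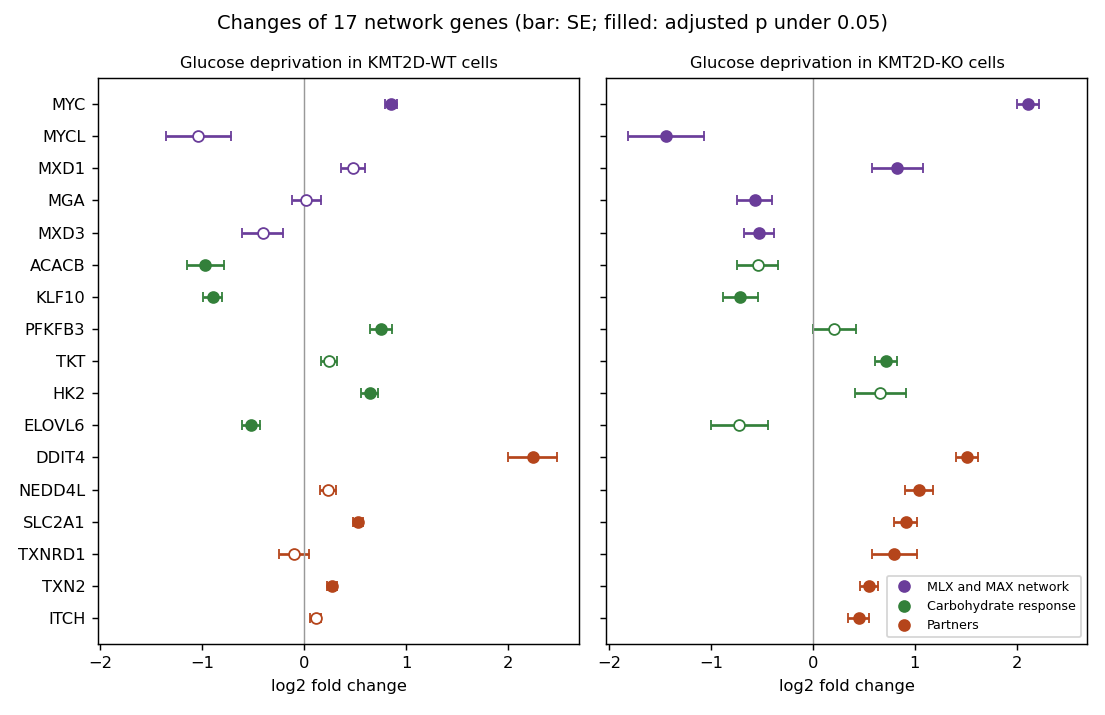
Log2 fold changes without against with glucose in KMT2D-WT (left) and KMT2D-KO (right) cells for 17 genes of the 3 lists, by edgeR; bars are SE and filled points have an adjusted p under 0.05. DDIT4, at 2.24 and 1.51, and MYC, at 0.85 and 2.11, lie farthest to the right.

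The genes whose profile over the 14 libraries was most like that of TXNIP, by Pearson r of log2 CPM among 9495 others with a mean of at least 10 CPM, were MFNG at 0.961, LINC00857 at 0.936, MT-CO3 at 0.925, BTN2A2 at 0.924 and SOX12 at 0.922. MFNG, a glycosyltransferase that modifies Notch, had log2 fold changes of -2.82 and -2.10 without glucose in KMT2D-WT and KMT2D-KO cells, and MT-CO3, a mitochondrially encoded subunit of cytochrome c oxidase, of -0.92 and -1.02. For ARRDC4 they were FBXO21 and CASP2, both at 0.944, GTF2I at 0.930, CREB3L2 at 0.927 and EMSY at 0.926. CREB3L2, a membrane-bound transcription factor, had log2 differences of -1.26 and -1.06 in KMT2D-KO against KMT2D-WT cells with and without glucose. ARRDC4 lay under the mean of 10 CPM and so could not be listed for TXNIP. The 2 genes correlated at 0.55 over the 14 libraries, at 0.94 over the 7 with glucose and at -0.43 over the 7 without. The points share libraries, depth and scaling, and no test was made.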

How the data were processed

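RNA-seq libraries were mapped with HISAT2 and the authors deposited raw counts per gene name, made with featureCounts 2.0.3 (Ensembl 102, GRCh38, primary alignments, unstranded) per the file headers; 4 libraries had both mates counted. Groups came from the labels. Genes passing filterByExpr (minimum count 10) entered edgeR 4.0.16, run in R 4.3.3 (TMM, quasi-likelihood, with experiment as covariate, Benjamini-Hochberg adjusted p under 0.05 over all genes); the paper's methods name DESeq2 without a covariate, run here as an alternative with DESeq2 1.42.0. Experiment served as the block in every comparison. Over genes, the differences between experiments correlated at 0.9 and 0.73 between genotypes but only at 0.18 and 0.16 between glucose conditions. They were thus shared by the arms of the genotype comparisons and little by those of the glucose comparisons, whose calls without the block are given above. Count ratios had 0.5 added to each count and were tested by exact permutation. The scripts were tested on simulated data.

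Named genes were the 7 members, KMT2D and up to 6 genes a list. The latter had the largest changes among those passing in a glucose comparison, with a mean of at least 1 CPM. The 5 genes most correlated with TXNIP and with ARRDC4 (mean of at least 10 CPM) were also named. Others named are HSPBAP1, DDIT3, TIGD1, MTHFS, P4HA1, ARRDC1, ARRB1, ARRB2 and markers, chosen after their values were seen. The members and lists were chosen with earlier results of these data known. Depth was 15669154 to 62968057 counts a library, and the errors given are the spread between libraries. Alternatives changed the tool, covariate, scaling, filter, layout and libraries.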

Additional observations from a re-analysis of the deposited data

Results flagged for a closer look

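TXNIP in KMT2D-KO without glucose replicate 1 (KO1, experiment 1) stood at 9.72 CPM, far from the 3.20 to 3.61 CPM of the other 3 libraries of its group. The same library had 19.9 CPM of KMT2D, 53.7 CPM of MLXIP and 0.125 CPM of ARRDC4, the lowest of all 14 libraries for each. The gap of its TXNIP level to the nearest library was 0.937 of the range of the group, above Dixon's 95% critical value. Among the 14 groups of 4 libraries examined, the 7 genes in both KMT2D-KO conditions, it was the 1 that met this criterion, and chance alone gives about 1 in 20.

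The KMT2D-KO effect on ARRDC2 differed between glucose conditions by a log2 difference of -0.72 (SE 0.21, edgeR adjusted p = 0.0484), being 0.38 with glucose and -0.36 without. The difference kept its sign in 28 of 28 alternatives, from -0.95 to -0.61, and passed the test in 8 of them.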

How the results depend on the processing

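In KMT2D-WT cells glucose deprivation changed TXNIP by -4.53 to -4.34 on the log2 scale with 1 library left out at a time, with 0 to 4 members passing, and by -4.30 in experiment 1 alone, where 0 passed (1 at an unadjusted edgeR p under 0.05) and MLXIP turned to 0.03. Without the replicate block, that is without experiment as a term, 1 member passed in KMT2D-WT cells, 2 in KMT2D-KO cells, 1 for KMT2D-KO against KMT2D-WT without glucose and 0 for the difference of the KMT2D-KO effect, where 1 had an unadjusted p under 0.05; it changed no other call on TXNIP. With all 14 libraries in 1 fit 2 members passed in KMT2D-WT cells, and with the 2 closely alike libraries of a group summed into 1 (close pairs summed) 1; MLXIPL was not tested there with a mean of at least 1 CPM. In KMT2D-KO cells TXNIP changed by -3.97 to -3.25 with each library left out, with 3 to 5 members passing, and 3 passed with the close pairs summed. There 0 passed in experiment 1 alone (TXNIP at -2.84), in line KO1 alone (-2.97) and in line KO2 alone (-4.08), with 3, 3 and 4 members at an unadjusted edgeR p under 0.05.

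For KMT2D-KO against KMT2D-WT with glucose TXNIP differed by -1.40 to -1.17 with each library left out, with 1 to 4 members passing. In experiment 1 alone 0 passed (TXNIP -1.37, with 3 members at an unadjusted edgeR p under 0.05), in line KO1 alone 6, and in line KO2 alone MLX turned to 0.01. Without glucose TXNIP differed by -0.78 to -0.23 with each library left out, with 2 to 7 passing. It turned to 0.09 in experiment 1 alone, where 0 passed and 1 had an unadjusted edgeR p under 0.05, and passed at -0.68 in experiment 2 alone and at -0.80 in line KO2 alone. There 3 members passed with DESeq2 without experiment, with line KO1 alone and with all 14 libraries in 1 fit, and 0 with the close pairs summed, with 2 at an unadjusted edgeR p under 0.05.

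For the difference of the KMT2D-KO effect, TXNIP lay at 0.52 to 1.08 with each library left out, with 0 to 4 members passing, and passed at 0.89 with no low-count filter and at 1.37 in line KO1 alone. There were 2 members with DESeq2 with experiment, with no low-count filter, with a mean of at least 1 CPM, with experiment 2 alone and with either line alone, and 0 with DESeq2 without experiment, experiment 1 alone, all 14 libraries in 1 fit or the close pairs summed, with 1, 0, 3 and 3 members in that order at an unadjusted p under 0.05. MLXIPL turned to -0.04 with library size scaling, -0.09 in experiment 2 alone, -0.08 in line KO1 alone and -0.26 without KMT2D-WT without glucose replicate 1, and MLXIP to 0.02 without that library and to 0.06 without KMT2D-KO without glucose replicate 1. With 1 library left out MLXIP lay between -0.44 and 0.06 and MLXIPL between -0.26 and 0.41. The cause was not tested.

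The ARRDC4 to TXNIP ratio differed by 2.10 to 3.04 with each library left out, by 1.61 in experiment 1 alone, 2.42 in KMT2D-WT and 2.30 in KMT2D-KO libraries alone, these last 3 values short of an exact permutation p of 0.05. The MLXIP to MLX ratio differed by -0.66 to -0.32, by -0.70 in experiment 1 alone and by -0.19 in KMT2D-WT libraries alone, where 0.1 is the smallest possible p. Pairing by line and experiment changed neither call. No ratio test was run with the closely alike libraries summed, so each of them counted as a separate library.

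Over all genes, calls ranged from 0 to 8747 in KMT2D-WT cells (2536 as reported), 0 to 11782 in KMT2D-KO cells (4813), 23 to 7273 with glucose (5042), 73 to 12448 without (8521) and 0 to 4349 for the difference (2105). In KMT2D-WT cells 0 genes were called without KMT2D-WT with glucose replicate 3, and in KMT2D-KO cells 0 in line KO1 alone. The members that did not pass in these settings shared this with all genes. Library size scaling moved the median log2 fold change of all genes to -0.20 in KMT2D-KO cells, -0.25 for KMT2D-KO against KMT2D-WT without glucose and -0.23 for the difference, and the share of calls that were higher from 46.5%, 51.0% and 42.0% to 20.5%, 30.2% and 9.90%. MLXIPL had as few as 4 and ARRDC4 as few as 2 counts in a library, and whether depth limits their values was not tested.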
